A study of Bos grunniens with 12 samples.

Results

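Cyclins, the cyclin-dependent kinases (CDKs) and the CDK inhibitors were followed in the testes of yaks of 2 ages. They were taken from the deposited gene table as the rows whose symbol begins with CDK and a digit, with CDKN, with CDKL, or with CCN followed by a letter from A to L or by O, T or Y. This gave 82 of the 20953 rows, under 52 symbols. The 5Y group is 3 yaks (Bos grunniens) of 5 years, whose testes were taken at slaughter, and the 18M group is 3 yaks of 1.5 years, whose testes came from castration. The labels name no allele and no agent; per the methods, the castrated animals were given antibiotics after collection. Age and the way of collection changed together, so their effects cannot be told apart. Each testis gave an input library of fragmented mRNA and an immunoprecipitated (IP) library of the fragments bound by an antibody against N6-methyladenosine (m6A), 12 libraries in all, and gene levels are deposited for the 6 input libraries.

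The CDKs of the cell cycle are active only with a cyclin bound to them. D- and E-type cyclins with CDK4, CDK6 and CDK2 carry a cell through G1 into S phase, A- and B-type cyclins with CDK2 and CDK1 carry it through S phase and into division, and the CDK inhibitors bind these complexes and stop them. Another set of CDKs and cyclins acts on RNA polymerase II and splicing rather than on division. In the testis, spermatogonia divide by mitosis, spermatocytes pass through meiosis with the testis-enriched cyclin CCNA1, and Sertoli cells leave the cell cycle as the testis matures, with CDKN1B known as one of the inhibitors that hold them there. m6A is a mark on mRNA that affects its splicing, stability and translation.

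The names needed a check first, because 19 of the 52 symbols stood on several rows, 49 rows in all and up to 7 for 1 symbol. So did 3871 of 13664 symbols over all rows. A row was taken as carrying its symbol's gene where the Gene Ontology or pathway terms beside it named cyclins, or, where none of the symbol's rows did, the cell cycle. This held for 12 of the 49 rows, and the other 37 are called unsupported below. The terms of several unsupported rows named other functions. The second CDKN1A row (ENSBGRG00000011214) carried terms of the ribosome, a CDK16 row (ENSBGRG00000014621) those of a ubiquitin-specific protease, the second CDKN3 row (ENSBGRG00000023478) those of Golgi vesicle transport, a CCNF row (ENSBGRG00000019108) those of lipid transport, and a CCND1 row (ENSBGRG00000008216) those of carnitine palmitoyltransferase. The 33 symbols on 1 row were kept, although the terms of 12 of them named neither cyclins nor the cell cycle. Reverse transcriptase terms stood on 12 of the 82 rows and on 3523 rows of the whole table. CDKN1A, which marks the family in this study, was kept as ENSBGRG00000011138, whose terms name CDK inhibition and the G1/S transition. CDK4, CDK7, CCNB1, CCNB2, CCNB3, CCND2, CCNT1, CDKN1C, CDKN2A and CDKN2B had no row under their symbols and were not analysed here.

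CDKN1A is also the one of these genes whose RT-qPCR primers the study lists. They are shown because the symbol stands on 2 rows and they say which transcript sequence the study itself assayed under this name. They were not placed on the genome here.
CDKN1A forward primer: gcggtggaacttcgactttg
CDKN1A reverse primer: atctgtcatgctggtctgcc
Each primer is 20 bases long, in lower case throughout since no stretch of it is singled out.

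The libraries did not part cleanly by age, and they go against the ages in a way that touches every result below. Spermatids form only after meiosis, yet the means of their markers on 1 row each were lower in 5Y. The 5 round spermatid markers on 1 row each were ACRV1, ACTL7A, ACTL7B, SPACA1 and SUN5. They summed to 296 to 406 FPKM in 18M and 94.5 to 323 in 5Y. Of the 5, 4 were lower at an unadjusted p-value under 0.05 in limma, beside 10.9% of all tested rows. Only ACTL7A had no overlap between the groups. FPKM counts fragments relative to transcript length and to the library's mapped fragments, so it is a level per length. The 2 elongating spermatid markers on 1 row each (GAPDHS and ODF1, of 10 listed) summed to 159 to 179.6 in 18M and 31.7 to 111 in 5Y. Both were lower at an unadjusted p-value under 0.05 in limma, without overlap. The 5 Sertoli cell markers summed to 71.8 to 83.8 in 18M and 104 to 250.3 in 5Y. INHA alone made 56.4 to 65.2 and 81.2 to 211 of these sums. The 8 peritubular and stromal markers summed to 26.3 to 30.3 and 39.0 to 64.3. All 5 Sertoli cell markers and 5 of these 8 were higher at an unadjusted p-value under 0.05 in limma, beside 14.2% of all tested rows. Spermatocyte markers overlapped, at 70.2 to 74.9 and 59.6 to 74.1, as did the 3 spermatogonial markers, at 32.4 to 38.9 and 37.3 to 67.8. DMRT1 alone made 30.9 to 37.1 and 35.8 to 64.8 of the spermatogonial sums. The 7 macrophage markers summed to 28.4 to 35.9 and 40.3 to 46.1, with 2 higher and 2 lower in 5Y at an unadjusted p-value under 0.05, the 3 endothelial markers to 5.86 to 8.28 and 7.01 to 9.95, no erythroid marker stood on 1 row, and the Leydig cell gene STAR lay at 8.60 to 15.4 and 4.83 to 6.30. No marker on 1 row was at 0 in every library, and none passed an adjusted p-value of 0.05 in limma. Listed markers with no row under their symbols included PRM1, PRM2 and TNP2 of elongating spermatids and INSL3 and CYP17A1 of Leydig cells. The developmental stage field of the record also names the opposite stage for every sample. The growth protocol and the tissue sections of the study follow the titles, and whether libraries were exchanged was not tested. The groups keep the names of their titles here, and 5Y and 18M mean the libraries so titled. Across all tested genes, as a description, 5Y replicate 1 correlated with the 18M libraries at 0.817 to 0.837 and 5Y replicate 2 at 0.942 to 0.947, near the 0.952 to 0.958 among the 18M libraries themselves. FPKM summed to 133504 to 139921 in 18M and 116187 to 131024 in 5Y. The smallest steps between low values placed the depth of the libraries within 0.993 to 1.10 times that of 18M replicate 1; the number of reads itself is not known.

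Of the 82 rows, 60 had a mean of at least 0.5 FPKM and were tested, 16 lay below this with a value above 0 in some library, and 6 were listed at 0 in all 6 libraries. None of the 60 passed an adjusted p-value of 0.05 between 5Y and 18M in limma, where 4 of all 12437 tested rows did (0.0322%). At an unadjusted p-value under 0.05 the count was 12 of 60 (20%), below the 25.1% of all tested rows. Of the 12, 7 were higher in 5Y, beside 14.2% of all rows, and 5 were lower, beside 10.9%. The split was 12 higher and 3 lower with the libraries scaled to one FPKM sum, and 5 and 7 with equal medians. Of all 12437 tested rows, 2419 were higher and 1055 lower with one FPKM sum, and 1439 and 1689 with equal medians. Without 18M replicates 1, 2 and 3 in turn, the split of the 60 rows was 4 and 1, 2 and 3, and 3 and 0. All rows then gave 1161 and 607, 1189 and 898, and 1034 and 628. Without 5Y replicate 2 the split was 12 and 9, beside 2713 and 2279 of all rows. Without 5Y replicate 3 it was 2 and 1, beside 1040 and 936. The 3 libraries of one age all lay above those of the other in 15 of 60 rows (25%), beside 33.7% of all rows; 5Y was higher in 9 and lower in 6, beside 19.8% and 13.9%. The median log2 fold change of the 60 rows was 0.012, and that of all tested rows was 0.043. Fold changes are of FPKM + 0.1, 5Y over 18M, and understate the change of low genes. In whole testis, fewer cells of a type and less RNA per cell cannot be told apart.

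**Figure D1:**
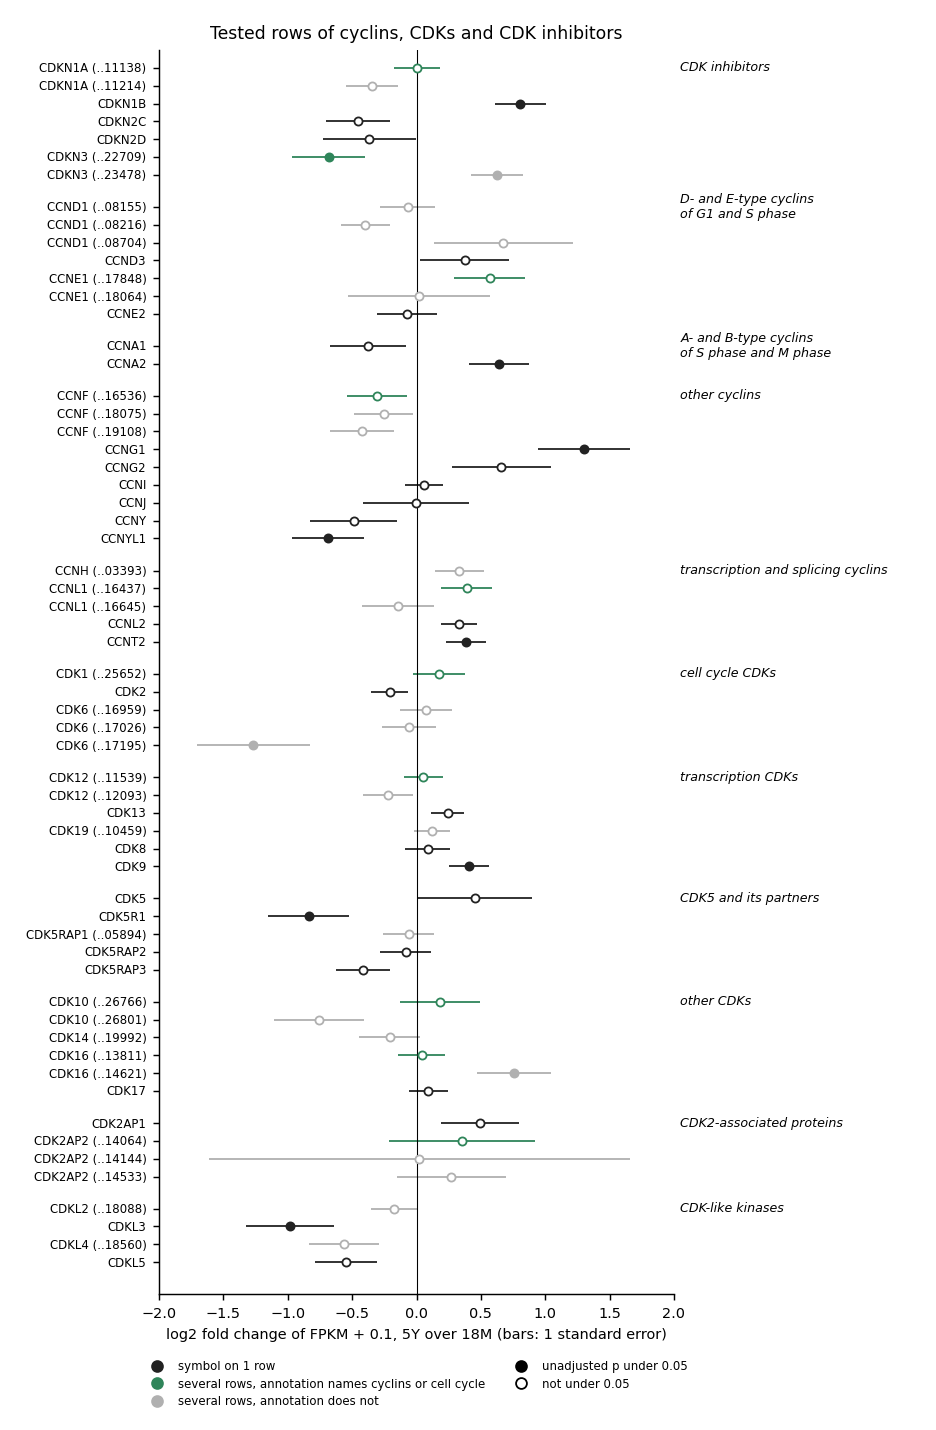
Log2 fold change of FPKM + 0.1, 5Y over 18M, with 1 standard error, for the 60 tested rows by role; filled points have an unadjusted p-value under 0.05, and colour gives the support for the name. The 12 filled points lie on both sides of 0, 7 to the right and 5 to the left, and 3 of them are grey rows whose name is unsupported.

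5Y replicate 1 stood farthest from 18M. The median distance of the 60 rows from the 18M mean was 0.596 on the log2 scale in 5Y replicate 1, 0.191 in 5Y replicate 2 and 0.330 in 5Y replicate 3, against 0.104 to 0.126 for the 18M libraries. 5Y replicate 1 held the lowest or the highest of the 6 values in 39 of the 60 rows (65%), close to the 69.3% of all tested rows. It was the lowest in 26 (43.3%) and the highest in 13 (21.7%), beside 35.5% and 33.7% of all tested rows. Without 5Y replicate 2, the library most like 18M, 13 of the 60 rows (21.7%) passed an adjusted p-value of 0.05, 6 higher and 7 lower in 5Y, beside 19.3% of all rows. Leaving out the 5Y library nearest to 18M widens the differences by its construction, so these calls are given for the reach of that library and support no single gene. With any other single library left out, no member passed.

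**Figure D2:**
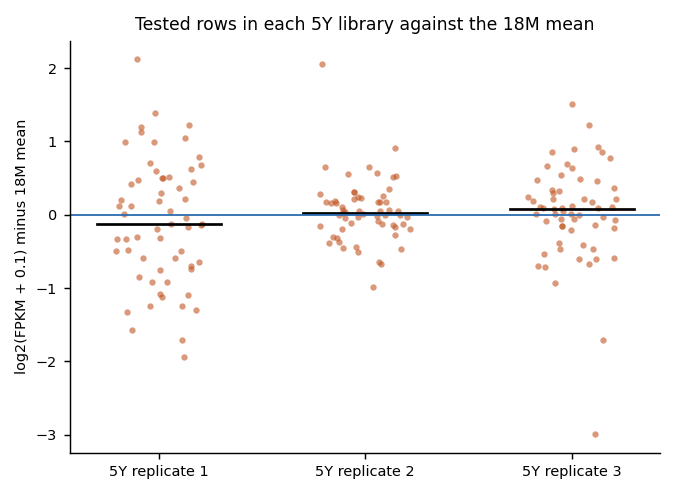
Difference of log2(FPKM + 0.1) from the mean of the 3 18M libraries for the 60 tested rows (points) in each 5Y library; black bars are medians and the blue line is the 18M mean. The median distance from the 18M mean, in either direction, is largest in 5Y replicate 1 and smallest in 5Y replicate 2. The lowest single point, an unsupported CDK2AP2 row at -2.99, is in 5Y replicate 3. That row was at 0 FPKM there and also in 18M replicate 3, so the point depends on the added 0.1.

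The CDK inhibitors were measured at 7 rows, 5 of them with a supported or single name, and these 5 did not move together. CDKN1B, which holds cyclin E and CDK2 inactive in resting cells, was higher in every 5Y library. It lay at 4.37, 4.29 and 3.84 FPKM in 18M and at 9.68, 6.06 and 6.76 in 5Y. The means were 4.16 ± 0.287 and 7.50 ± 1.92 (SD, n = 3 each), without overlap, and the fold was 1.75 (log2 fold change 0.81, SE 0.20). Its unadjusted p-value was 0.00473, the lowest of the 60 rows, and its adjusted p-value in limma was 0.154. Without 5Y replicate 2 the log2 fold change was 0.94 with an adjusted p-value of 0.0298 in limma, and without 5Y replicate 1 it was 0.61 with 0.139. The fit without 5Y replicate 2 widens differences by its construction. In it 19.3% of all rows passed, so it gives CDKN1B no support of its own.

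CDKN1A, an inhibitor induced after DNA damage, did not differ between the ages beyond the spread of its libraries. It lay at 16.6, 17.8 and 18.7 FPKM in 18M and at 14.0, 19.94 and 20.05 in 5Y. The lowest and the 2 highest values were both in 5Y, around the 18M values. The log2 fold change was 0.01 (SE 0.18), with an adjusted p-value of 0.987 in limma. The study reports that RT-qPCR of differentially methylated genes matched its RNA-seq patterns, and its figure legend calls the genes so checked differentially expressed. It lists primers for CDKN1A, but its text gives no direction or size for this gene, so no comparison was made here. The unsupported CDKN1A row lay far higher, at 71.1 to 84.4 in 18M and 49.5 to 77.7 in 5Y, so the symbol alone would mix different levels.

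CDKN3, a phosphatase that removes the activating phosphate of CDKs, was on the lower side in 5Y at its supported row (ENSBGRG00000022709). It lay at 12.9, 11.3 and 13.2 FPKM in 18M and at 5.16, 11.7 and 7.52 in 5Y. The groups overlapped through 5Y replicate 2, and the log2 fold change was -0.68 (SE 0.28, unadjusted p = 0.0460, adjusted p = 0.194 in limma). The unsupported CDKN3 row went the other way, at 3.85 to 5.97 in 18M and 6.68 to 8.53 in 5Y (log2 fold change 0.62, SE 0.20, unadjusted p = 0.0176).

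The INK4 inhibitors CDKN2C and CDKN2D, which bind CDK4 and CDK6, were the higher and the middle of the family in level. CDKN2C lay at 30.0, 35.3 and 33.8 FPKM in 18M and at 17.3, 33.7 and 23.8 in 5Y. Replicates 1 and 3 of 5Y were below every 18M library and replicate 2 was among them (log2 fold change -0.45, SE 0.25, adjusted p = 0.277 in limma). Without 5Y replicate 2 the log2 fold change was -0.70, with an adjusted p-value of 0.0481 in limma, and without 5Y replicate 1 it was -0.22 with 0.522. The first of these fits, in which 19.3% of all rows passed, widens differences by its construction and gives CDKN2C no support of its own. CDKN2D lay at 15.996, 12.1 and 23.1 in 18M and at 7.63, 16.4 and 16.5 in 5Y, with overlap (log2 fold change -0.37, SE 0.36). Its log2 fold change was 0.0013 without 5Y replicate 1 and -0.12 without 18M replicate 3, so the difference rested largely on those libraries. In both groups the order of the means was CDKN2C, CDKN1A, CDKN2D, CDKN3 and CDKN1B. In 18M the values of CDKN2C lay above all others and those of CDKN1B below all others, while CDKN1A, CDKN2D and CDKN3 overlapped with a neighbour; in 5Y each overlapped with its neighbour.

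**Figure D3:**
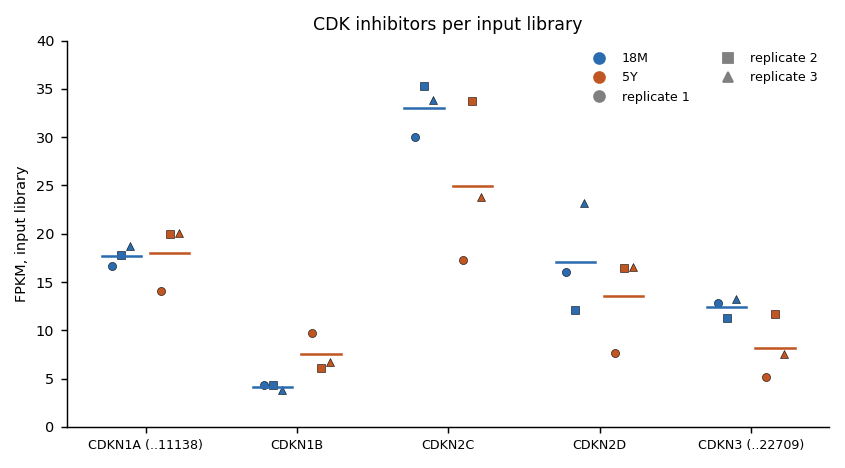
FPKM of the 5 CDK inhibitors with a supported or single name in each input library (symbols, by replicate) with group means (bars). CDKN1B alone has all 5Y values above all 18M values, and CDKN2C is the highest in both groups.

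Among the cyclins of G1 and S phase, no row of the D and E types passed an unadjusted p-value of 0.05. All lay under 5 FPKM in every library. CCND3, a partner of CDK4 and CDK6, lay at 0.685, 0.950 and 1.70 FPKM in 18M and at 1.38, 1.69 and 1.12 in 5Y, with a log2 fold change of 0.37 (SE 0.34). The supported CCND1 row (ENSBGRG00000024441) was below the filter, at 0.319, 0.309 and 0.507 in 18M and at 0.162, 0.078 and 0 in 5Y. All its 5Y values were the lower ones, at levels too low to test. The 3 tested CCND1 rows were all unsupported, with log2 fold changes of -0.40 to 0.67. CCNE1, which with CDK2 starts S phase, lay at 1.37, 0.871 and 1.58 in 18M and at 1.79, 2.40 and 1.55 in 5Y (ENSBGRG00000017848; log2 fold change 0.57, SE 0.28, adjusted p = 0.238 in limma). Only the lowest 5Y value fell within the 18M range. The unsupported CCNE1 row spread from 0.488 to 2.37 within 18M alone. CCNE2 lay at 3.98, 4.61 and 3.43 in 18M and at 2.83, 4.97 and 3.83 in 5Y, with the 5Y values on both sides (log2 fold change -0.07, SE 0.23).

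The 2 A-type cyclins differed in direction. CCNA2, the A-type cyclin of dividing somatic cells and spermatogonia, was low but higher in every 5Y library. It lay at 1.64, 1.15 and 1.34 FPKM in 18M and at 2.42, 1.68 and 2.54 in 5Y. The groups did not overlap, and the fold was 1.56 (log2 fold change 0.64, SE 0.23, unadjusted p = 0.0285, adjusted p = 0.170 in limma). CCNA1, which acts in meiosis, was far more abundant. It lay at 16.7, 14.2 and 16.9 in 18M and at 7.48, 15.3 and 15.8 in 5Y. Its one low value was in 5Y replicate 1, and the log2 fold change went from -0.38 (SE 0.29) to -0.03 without that library.

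The remaining cyclins held the largest difference of all 60 rows. CCNG1, a G-type cyclin, lay at 10.1, 10.4 and 9.53 FPKM in 18M and at 43.7, 14.8 and 23.6 in 5Y. The 18M values were tight and every 5Y value was above them, though the 5Y values spread widely among themselves. The means were 10.01 ± 0.442 and 27.4 ± 14.8, and the fold was 2.47 (log2 fold change 1.30, SE 0.36, unadjusted p = 0.00793, adjusted p = 0.154 in limma). Over the fits that left out 1 library, its log2 fold change ran from 0.90 to 1.67. Its adjusted p-value in limma was 0.0210 without 5Y replicate 2 and 0.138 without 5Y replicate 1. The fit without 5Y replicate 2, in which 19.3% of all rows passed, widens differences by its construction and gives CCNG1 no support of its own. CCNG2, its relative, lay at 0.616 to 0.896 in 18M and 0.679 to 1.91 in 5Y; it was picked once the values were known. CCNYL1, a cyclin Y relative, was lower in every 5Y library. It lay at 14.97, 15.05 and 13.5 in 18M and at 5.72, 12.6 and 9.96 in 5Y (log2 fold change -0.69, SE 0.28, unadjusted p = 0.0428, adjusted p = 0.189 in limma). CCNY itself, whose terms were those of a reverse transcriptase, lay at 12.0, 9.28 and 9.22 in 18M and at 4.18, 8.06 and 10.8 in 5Y, with overlap. The highest cyclin was CCNI, at 41.8 to 44.8 in 18M and 40.4 to 49.8 in 5Y (log2 fold change 0.06, SE 0.15), also named after its values were seen.

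No cell cycle CDK with a supported or single name had an unadjusted p-value under 0.05. CDK1, which drives entry into division, lay at 6.15, 6.81 and 6.45 FPKM in 18M and at 5.85, 9.57 and 6.96 in 5Y (ENSBGRG00000025652). The 5Y values lay on both sides of the 18M values (log2 fold change 0.17, SE 0.20, adjusted p = 0.581 in limma). CDK2 lay at 12.6, 13.8 and 15.4 in 18M and at 11.2, 12.7 and 12.2 in 5Y. The groups overlapped by 1 library on each side (log2 fold change -0.21, SE 0.14, adjusted p = 0.370 in limma). All 3 CDK6 rows were unsupported. One of them (ENSBGRG00000017195), with calcium-binding and taste transduction terms, held the most negative log2 fold change of the family, -1.27 (SE 0.44, unadjusted p = 0.0229), from 15.7, 13.5 and 16.2 in 18M to 3.86, 13.6 and 4.54 in 5Y. The other CDK6 rows had log2 fold changes of 0.07 and -0.06, so the symbol CDK6 gave no single direction.

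The CDKs and cyclins of transcription had small log2 fold changes, positive in 9 of 11 tested rows, where 53.5% of all tested rows were positive. CDK9, the kinase of the elongation factor P-TEFb, lay at 5.73, 5.07 and 6.48 FPKM in 18M and at 7.71, 6.87 and 8.40 in 5Y. The groups did not overlap (log2 fold change 0.41, SE 0.16, unadjusted p = 0.0349, adjusted p = 0.178 in limma). CCNT2, a cyclin partner of CDK9, lay at 3.55, 3.74 and 3.84 in 18M and at 5.67, 4.37 and 4.70 in 5Y. It too showed no overlap (log2 fold change 0.39, SE 0.15, unadjusted p = 0.0402, adjusted p = 0.185 in limma). CDK13, a kinase of elongating RNA polymerase II, lay at 6.92, 7.05 and 6.62 in 18M and at 7.996, 7.79 and 8.64 in 5Y, apart but by a log2 fold change of 0.24 (SE 0.13, unadjusted p = 0.101). Its relative CDK12 did not part (ENSBGRG00000011539; 5.66 to 6.21 in 18M and 5.21 to 6.81 in 5Y), nor did CDK8 of the Mediator complex (2.81 to 3.16 and 2.89 to 3.86). The CCNH row, for the cyclin of CDK7, was unsupported and lay at 2.22 to 2.71 and 2.69 to 3.76. Of the 7 tested rows of this role with a supported or single name, 4 CDKs and 3 cyclins, all 7 had positive log2 fold changes, between 0.05 and 0.41, and 2 had an unadjusted p-value under 0.05, beside 25.1% of all rows. Those of CDK12 and CDK8 turned negative under another scaling, at -0.0026 for CDK12 with equal medians and -0.0068 for CDK8 with quantile normalization.

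CDK5 is a kinase that works outside the cell cycle and is switched on by CDK5R1 rather than a cyclin. CDK5R1 lay at 15.1, 15.4 and 13.9 FPKM in 18M and at 4.88, 12.2 and 9.28 in 5Y. Every 5Y library was lower (log2 fold change -0.84, SE 0.31, unadjusted p = 0.0315, adjusted p = 0.173 in limma). CDK5 itself was low, at 0.875, 0.600 and 0.282 in 18M and at 0.946, 0.485 and 0.990 in 5Y, with overlap (log2 fold change 0.45, SE 0.45). CDKL3, a CDK-like kinase, gave the second largest difference among supported or single names. It lay at 11.1, 12.3 and 15.1 in 18M and at 3.82, 10.3 and 6.65 in 5Y, without overlap, and was 1.97-fold lower in 5Y (log2 fold change -0.98, SE 0.34, unadjusted p = 0.0230, adjusted p = 0.165 in limma). Its terms named neither cyclins nor the cell cycle, as was true of CCNT2. All 4 tested rows of CDK-like kinases had negative log2 fold changes, from -0.98 to -0.18, beside 46.5% of all tested rows, and 2 of the 4 rows, those of CDKL2 and CDKL4, were unsupported. The CDK16 row at an unadjusted p-value of 0.0317 (ENSBGRG00000014621), at 8.02 to 9.08 in 18M and 10.1 to 22.9 in 5Y, was the one with ubiquitin protease terms, and the supported CDK16 row (ENSBGRG00000013811) lay at 3.48 to 4.52 and 3.55 to 4.87.

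**Figure D4:**
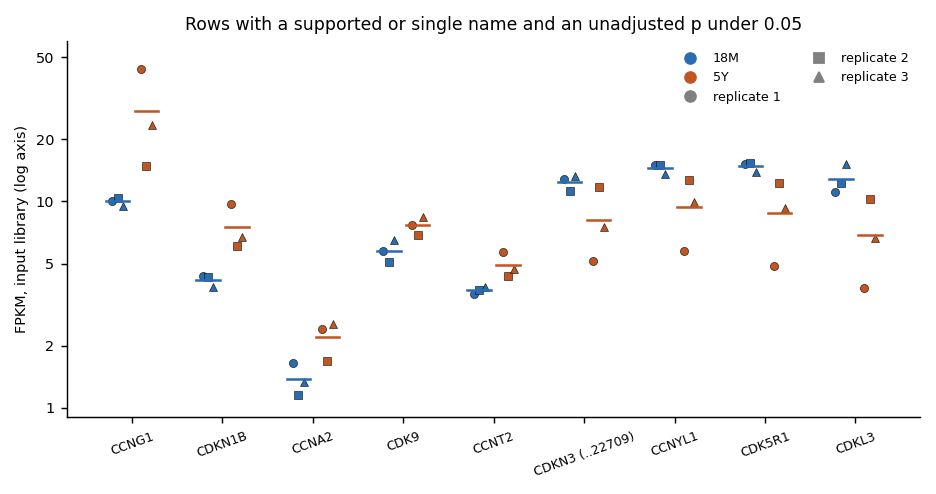
FPKM on a log axis of the 9 rows with a supported or single name and an unadjusted p-value under 0.05, per input library (symbols, by replicate) with group means (bars). In the 5 rows on the left every 5Y value is above every 18M value; in the 4 on the right 5Y replicate 1 is the lowest, and CDKN3 overlaps through 5Y replicate 2.

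With the 37 tested rows of supported or single names alone, 9 had an unadjusted p-value under 0.05, 5 higher in 5Y (CCNG1, CDKN1B, CCNA2, CDK9 and CCNT2) and 4 lower (CDKL3, CDK5R1, CCNYL1 and CDKN3). The 5Y libraries ran in the order of replicates 1, 3 and 2 in distance from 18M for CCNG1, CDKN1B, CCNT2 and all 4 lower rows, and in the order 3, 1 and 2 for CDK9 and CCNA2. In replicates 1, 3 and 2 the summed Sertoli cell markers lay at 250.3, 131 and 104 FPKM and the round spermatid markers at 94.5, 148 and 323. Of these sums INHA alone made 211, 100 and 81.2, and ACTL7B 56.4, 91.8 and 189. Every marker in both sums ran in that order of replicates. Over all tested genes, correlations with the 18M libraries followed the same order of replicates, at 0.817 to 0.837, 0.912 to 0.917 and 0.942 to 0.947. The 9 rows were split by their direction in 5Y. That they share it with markers higher or lower there was set by this choice. The part of the cell types in these differences was not tested.

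Genes that act with cyclins and CDKs were read from a list of 57 symbols, of which 37 stood on 1 row and 33 were tested. None passed an adjusted p-value of 0.05, and 4 were higher in 5Y at an unadjusted p-value under 0.05, with 0 lower, beside 14.2% and 10.9% of all rows. The count was 1 without 18M replicate 1 and 2 without 18M replicate 3, beside 1161 and 1034 of all rows higher. MDM2, a ubiquitin ligase, lay at 3.44, 3.36 and 2.74 FPKM in 18M and at 5.58, 4.38 and 4.89 in 5Y (unadjusted p = 0.00708, adjusted p = 0.154 in limma). SKP2, which marks CDKN1B for degradation, lay at 0.824, 1.26 and 1.35 in 18M and at 2.80, 1.63 and 1.80 in 5Y (unadjusted p = 0.0259). CDC7, a kinase that fires replication origins, lay at 3.08 to 3.798 in 18M and 4.25 to 4.66 in 5Y (unadjusted p = 0.0444). These 3 genes did not overlap between the ages. Of the 33 tested, 7 lay apart and higher in 5Y and 1 apart and lower, beside 19.8% and 13.9% of all tested rows. The summed level of the list was 377 to 386 FPKM in 18M and 314 to 394 in 5Y, and its median log2 fold change was 0.00064. RB1, the target of the D-type cyclins and CDK4, lay at 4.09 to 4.33 in 18M and 4.39 to 4.71 in 5Y. PLK1 and CDC20, which act in division, lay at 9.53 to 11.7 and 51.4 to 55.9 in 18M and at 4.62 to 11.4 and 34.8 to 53.2 in 5Y, lowest in 5Y replicate 1.

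The deposited list of 1438 m6A peaks that differed between the ages held 11 on 10 of the 82 rows (12.2%), beside 5.63% of all rows of the table. Among tested rows it was 10 of 60 (16.7%) beside 9.29%. The list gives places and widths but no size or direction of a difference. All 11 peaks were annotated to exons and none to an untranslated region, against 1091 of 1438 in exons over the whole list. 5 of the 11 (45.5%) lay in exon 1, against 221 of 1438 (15.4%). Positions are on LU_Bosgru_v3.0, and widths include introns that a peak spans. The median width was 393 bp on these rows and 398 bp over the list.

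On the CDK inhibitors there were 3 peaks. That of CDKN1B was on chromosome 5 at 4928185-4928577, 393 bp in exon 1 of 2 on the plus strand, and covered the middle of a gene annotated at 826 bp. That of CDKN1A was on chromosome 24 at 25729826-25730115, 290 bp in exon 1 of 3 on the minus strand, and began at the annotated start of the gene. Its input level did not differ beyond its spread, while that of CDKN1B was higher in each 5Y library. That of CDKN3 was on chromosome 11 at 55446278-55451897, 5620 bp from exon 5 of 7 on the plus strand, and ran past the annotated end of the gene at 55447880.

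The transcription CDKs held 4 peaks on 3 genes, 3 of them in exon 1. CDK13 had 248 bp on chromosome 4 at 42597840-42598087 and CDK8 246 bp on chromosome 15 at 48692946-48693191, each in exon 1 of 14 on the plus strand. CDK12 had 199 bp in exon 1 of 15 on chromosome 19 at 26543861-26544059 and 398 bp in exon 14 at 26503747-26504144, both on the minus strand. None of the 3 had an unadjusted p-value under 0.05 in the input libraries. CCNY had a wide peak of 11573 bp on chromosome 12 at 7427100-7438672, annotated to exon 7 of 11. The remaining 3 peaks lay on unsupported rows. They were 1326 bp in exon 19 of 23 on the CDK16 row ENSBGRG00000014621 (chromosome X, 93240598-93241923), 149 bp in exon 13 of 13 on the CCNL1 row ENSBGRG00000016645 (chromosome 1, 120365139-120365287) and 72564 bp at exon 2 of 8 on the CDK6 row ENSBGRG00000016959 (chromosome 4, 119823740-119896303). Reverse transcriptase terms stood on 3 of the 10 rows with a peak, CCNY, CCNL1 and CDK6. With peaks of at most 1000 bp alone, 6 rows held one. The share of all rows at that width is not given here, so this count has nothing to be set beside. Counting peaks of every width, 7 of the 45 rows with supported or single names held one (15.6%), beside 5.63% of all rows.

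**Figure D5:**
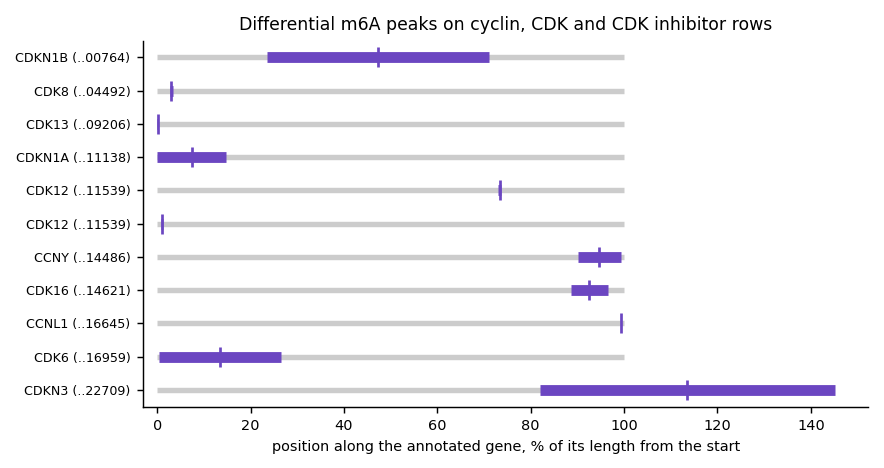
Place of the 11 differential m6A peaks (purple, centre marked) along their annotated genes (grey), in percent of gene length from the start. 5 lie in exon 1, 4 of these near the start of the gene; the peak of CDKN3 runs past 100%, and those of CDK6 and CCNY are wide because they span introns.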

How the data were processed

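Testes of 3 yaks of 5 years (5Y) and 3 of 1.5 years (18M) were grouped by the titles of their samples. The labels do not say that replicate numbers pair animals. For every gene, the authors deposited its FPKM in each of the 6 input libraries. According to the methods and the labels, reads were trimmed with Trimmomatic, cleared of rRNA, aligned with HISAT2 2.0.4 to LU_Bosgru_v3.0, and multiply mapped reads were dropped. The program that computed FPKM is not given in the sources used here. Peak widths (bp) are those deposited by the authors, who called and compared peaks with MeTDiff and annotated them with ChIPseeker; how replicates entered that step is not given. Values in other tables of peaks were not used here.

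All rows with a mean of at least 0.5 FPKM over the 6 libraries (12437) were fitted with limma 3.58.1 in R 4.3.3 (lmFit, eBayes with a trend) on log2(FPKM + 0.1), two-sided, with Benjamini-Hochberg adjustment over all rows tested. An exact permutation test of 3 against 3 cannot go below p = 0.1 and was not used. On simulated data of 12437 genes for this comparison, 75% of the genes shifted by 2 on the log2 scale were called, 18% of those shifted by 1, and none where nothing was shifted. Only a small part of the genes was shifted, and noise was independent between genes with 1 spread per gene for both groups. In the data, 5Y replicate 1 held an extreme value in 69.3% of all tested rows. The percentages therefore do not give the power of the real comparison. Named rows were every member row with an unadjusted p-value under 0.05 or a differential peak, and, whatever their values, the main inhibitors, cell cycle CDKs and A to E cyclins with CCNH, CCNT1, CDK5, CDK7 and CDK9. The members and lists were chosen with earlier results of these data known. Marker and pathway lists used only symbols on 1 row. One gene of the pathway list is counted but not reported here. Alternatives were other pseudocounts, filters, scalings, variance models and thresholds, sample weights, the replicate number as a block, leaving out single libraries, and narrow or otherwise matched peaks; restricting the rows to single or supported names was chosen after seeing the data. RefSeq gene order on the assembly Bosgru_T2T1.0 was read only for which genes neighbour each other. Python 3.11.15 with pandas 2.3.3 and numpy 2.4.6 did the rest.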

Additional observations from a re-analysis of the deposited data

How the results depend on the processing

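Of 594 log2 fold changes (35 named rows under 17 alternatives, CDK5 having none with a mean of at least 1 FPKM), 534 kept their direction and side of the threshold, 28 passed it newly with the same direction and 32 turned sign; since none had passed the adjusted threshold, none could lose it; no row with an unadjusted p-value under 0.05 turned. Scaling to one FPKM sum moved the median of all tested rows from 0.043 to 0.166 and that of the members to 0.124. It gave 12 members higher and 3 lower at an unadjusted p-value under 0.05, beside 2419 and 1055 of all rows. Pathway genes higher then numbered 7. Equal medians gave 5 members higher and 7 lower, beside 1439 and 1689 of all rows, with 1 pathway gene lower. Sample weights called 4462 rows at the adjusted threshold (3508 higher and 2478 lower unadjusted), 23 members (14 and 11) and 6 pathway genes (7 and 2). All called rows numbered 2 with a pseudocount of 0.01 or a mean of at least 1 FPKM, 8 with no filter, 9 without the trend, and 1152 at an unadjusted p-value under 0.05 with a log2 fold change over 1, where members numbered 2. Leaving out 1 library called 0 to 2403 rows (1034 to 2713 higher and 607 to 2279 lower, unadjusted), 0 to 13 members (2 to 12 higher, 0 to 9 lower) and 0 to 2 pathway genes (1 to 4 higher, 0 to 2 lower); the highest of each pair for all rows and members came without 5Y replicate 2. The replicate numbers do not pair the samples, with same-number deviations correlated at -0.022, -0.091 and 0.0067; the replicate block called 1 row, no member (5 higher and 4 lower, unadjusted) and 2 pathway genes higher unadjusted. Peaks of at most 1000 bp left 6 rows, and matching by symbol gave 19, with no share of all rows given here for either.

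Signs turned on small values. CDKN1A was at -0.049 with equal medians and between -0.080 and 0.18 with 1 library left out; with 1 library left out CDKN2D ran from -0.59 to 0.0013, CDK1 from -0.019 to 0.33, CDK6 ENSBGRG00000016959 from -0.14 to 0.20, CCNL1 ENSBGRG00000016645 from -0.34 to 0.13 and CDK12 from -0.027 up. CCND1 ENSBGRG00000008155 was at 0.051 and CCNE2 at 0.052 with one FPKM sum, and ran from -0.21 to 0.0092 and from -0.27 to 0.13 with 1 library left out. CCNE1 ENSBGRG00000018064 was at -0.033 with a pseudocount of 1, -0.12 after quantile normalization, -0.037 with equal medians, -0.49 with weights and from -0.45 to 0.59 with 1 library left out. CDK6 ENSBGRG00000017026 was at 0.067 with one FPKM sum, 0.16 with weights and from -0.20 to 0.14 with 1 library left out. CCNY was at 0.018 with weights, CDK12 at -0.0026 with equal medians, and CDK8 at -0.0068 after quantile normalization, -0.028 with weights and -0.047 with 1 library left out. The cause was not tested. Depth was near equal between libraries but is not known in reads, so rows under 0.5 FPKM were not tested.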

Other observations

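Outside the symbols followed above, 17 rows carried terms of CDK activity, of its regulators or of its inhibitors. 12 of them stood under symbols with several rows, and 4 bore the symbol of a gene that lies within 5 coding genes of a CDK or cyclin in RefSeq. CCNQ, a cyclin outside the letters followed, lay at 0.114 to 0.329 FPKM in 18M and 0.326 to 0.368 in 5Y. A TSPAN31 row (ENSBGRG00000008884; TSPAN31 neighbours CDK4) lay at 5.38, 4.89 and 5.07 FPKM in 18M and at 11.05, 5.56 and 7.03 in 5Y. A KANSL2 row (ENSBGRG00000000624; next to CCNT1) lay at 5.34 to 7.56 and 6.71 to 9.15, and a TIGAR row (ENSBGRG00000012336; next to CCND2) at 4.18 to 6.63 and 5.78 to 7.29. Those rows were left under their own symbols, and whether they hold the neighbouring CDK or cyclin was not tested. HEXIM1 and HEXIM2, which hold CDK9 and its cyclin inactive, lay at 3.06 to 5.42 and 6.63 to 7.90 FPKM in 18M and at 3.29 to 12.0 and 3.23 to 6.34 in 5Y. The symbol HEXIM1 stood on 2 rows, and the row given here (ENSBGRG00000023992) held 1 differential m6A peak. 10 of the 17 rows were tested, and 0 passed either an adjusted p-value or an unadjusted p-value of 0.05 in limma.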
